A study of Mus musculus with 16 samples.

Results

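The assembled ends of 17 of the 19 mouse autosomes (all but chromosomes 9 and 11) held 282 of the 7582 peaks of 5-hydroxymethylcytosine (5hmC) in 12 peak lists. A peak was proximal if it started in the 500 kb that follow the 3 Mb placeholder at the centromere side of each mouse autosome in the GRCm38 assembly, and distal if it ended within 600 kb of the chromosome length, of which the last 100 kb is an assembly gap on nearly every chromosome. This gave 186 proximal and 96 distal peaks. The rule used positions alone, so fold enrichment, p-values, recurrence and genotype did not enter it. Sequence follows from position, so it was also set beside windows placed through the same ends. The rule itself was chosen with earlier results of these data known.

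DNA was taken from c-kit+ bone marrow cells, a fraction that holds stem and progenitor cells, and DNA carrying 5hmC was pulled down with the antibody HMC31 and sequenced. All mice carried NHD13, a NUP98-HOXD13 fusion transgene used as a model of myelodysplastic syndrome. The control group had Tet2 intact (genotype NHD13) and the knockout group lacked it (NHD13/TET2-KO); Tet2 is one of the TET enzymes, which make 5hmC. Titles give each list a pool (1, 2 or 3) and a library number: 1 and 7 are knockout, 3 and 5 are control. Each number is taken as 1 DNA library with 3 repeat immunoprecipitations, and the labels give neither ages nor how many mice were used, so the spread between numbers may be technical. The 4 libraries of a pool went through the same immunoprecipitation. The 4 inputs were not analysed here. The lists ran from 9 to 3924 peaks, and pool 1 of numbers 5 and 7 gave the 2 longest, with 2337 and 3924 peaks. No read counts come with the lists, so the depth is unknown.

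Mouse autosomes are acrocentric: the centromere, built of AT-rich minor and major satellite repeats, lies almost at one tip, and the assembled sequence begins beyond it. The other tip is the distal end, where the assembled sequence stops at a terminal gap. TET enzymes oxidise 5-methylcytosine, which in most mammalian cells lies mainly at CpG dinucleotides. Satellites and recently duplicated blocks near centromeres exist in many near-identical copies, and a short read from one copy may be placed on another.

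The sequences below are summit stretches, with CpG in capitals, of the distal region that recurred in most lists, the proximal region of highest fold, the proximal region met in most lists and the region met in control numbers only. They show how differently the regions with recurrent peaks are built. All are the plus strand of GRCm38, read 5′ to 3′ from the RefSeq copy of the assembly.
chr2:181917823-181918022, distal in most lists: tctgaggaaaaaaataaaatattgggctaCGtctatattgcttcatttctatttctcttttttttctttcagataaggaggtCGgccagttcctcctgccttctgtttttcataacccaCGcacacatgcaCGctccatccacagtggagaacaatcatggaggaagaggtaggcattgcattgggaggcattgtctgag
chr12:3109853-3110092, proximal with the highest fold: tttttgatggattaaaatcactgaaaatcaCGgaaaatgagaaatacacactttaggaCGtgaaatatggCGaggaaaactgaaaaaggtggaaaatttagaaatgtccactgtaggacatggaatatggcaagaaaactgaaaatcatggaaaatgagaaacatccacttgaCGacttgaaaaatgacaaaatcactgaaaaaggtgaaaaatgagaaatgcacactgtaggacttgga
chr10:3111404-3111643, proximal in most lists: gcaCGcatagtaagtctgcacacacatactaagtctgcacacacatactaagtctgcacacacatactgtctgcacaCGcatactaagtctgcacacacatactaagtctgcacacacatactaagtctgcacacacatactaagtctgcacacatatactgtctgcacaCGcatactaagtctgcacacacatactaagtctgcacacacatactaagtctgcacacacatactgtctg
chr6:3050524-3050723, control numbers only: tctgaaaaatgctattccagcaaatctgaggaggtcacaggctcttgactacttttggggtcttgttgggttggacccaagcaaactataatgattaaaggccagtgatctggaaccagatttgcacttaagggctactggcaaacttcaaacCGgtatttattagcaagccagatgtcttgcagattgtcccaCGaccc

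The ends made up 0.762% of the assembled sequence of these 17 chromosomes and held 4.82% of the 5851 peaks there. The density was 22.9 peaks per assembled Mb in the proximal windows, 11.6 in the distal windows and 2.60 in the rest of the same chromosomes, summed over the 12 lists. The 2 longest lists weigh most on the rest: 1941 and 3166 of its 5569 peaks were in pool 1 of numbers 5 and 7. The other 10 lists held 105 proximal, 51 distal and 462 other peaks. The next 500 kb inward held 29 peaks on the proximal side and 56 on the distal side. Outside the 2 longest lists these were 4 and 31, and all 31 lay on chromosome 13.

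Number 7 (knockout) had 53, 21 and 23 proximal peaks and 24, 14 and 11 distal peaks in pools 1, 2 and 3. Number 5 (control) had 28, 21 and 22 proximal and 21, 12 and 9 distal peaks. Number 1 (knockout) had 7, 4 and 4 proximal and 1, 2 and 1 distal peaks. Number 3 (control) had 3 proximal peaks and 1 distal peak in pool 1 and none in pools 2 and 3, where its lists held 15 and 9 peaks. The 2 numbers with many end peaks were therefore 1 of each genotype, and so were the 2 with few.

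**Figure D1:**
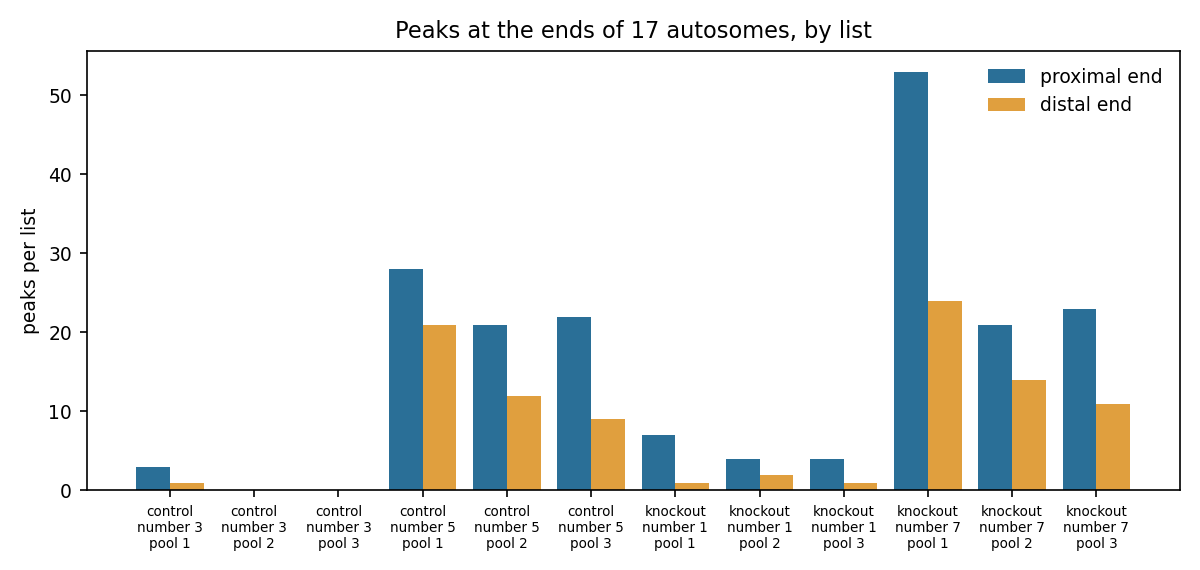
Peaks at the proximal (blue) and distal (orange) ends of 17 autosomes in each of the 12 lists (vertical axis, peaks per list). Each of the 10 lists with an end peak had more at proximal than at distal ends, and both long sets belong to numbers 5 and 7.

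Proximal peaks outnumbered distal peaks in all 10 lists that had any end peak. The excess did not hold on each chromosome. The 4 proximal ends with most peaks gave 130 of the 186, and their loci count again in each list. On some chromosomes distal peaks were more numerous, as on chromosome 2 (7 proximal and 27 distal) and chromosome 14 (0 and 9). Averaged over pools on log10(count + 1), the ratio was 1.79 (SD 0.126 log10 units, n = 4 library numbers), above 1 in 4 of 4 numbers: 2.55 in number 1, 1.26 in number 3, 1.72 in number 5 and 1.85 in number 7. The two-sided exact sign permutation over the 4 numbers gave p = 0.125, the smallest this design allows. The same permutation gave p = 0.00195 over the 12 lists, but that counts the 3 repeat immunoprecipitations of a library as independent samples. With windows of 1000 kb in place of those of the rule the ratio was 1.10 (exact sign permutation p = 0.625).

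Fold enrichment, the linear ratio of a peak over its background as the authors deposited it, was low at both ends. The median was 1.70 at both ends, with a range of 1.06 to 15.3, and 8 of the 282 peaks were above 3. In the longest list, pool 1 of number 7, many peaks share the value 1.70. It was that list's median for proximal, distal and other peaks alike, so the equal medians partly reflect 1 list. That list entered both differences below as 0. Pool 1 of number 5 entered the second as 0 too, since its median was 1.89 for end and other peaks alike. Within lists, the median of proximal minus that of distal peaks was -0.0334 (SD 0.178, n = 4 numbers; exact sign permutation p = 1), and end peaks minus other peaks on the same chromosomes gave -0.0326 (SD 0.0657, n = 4; exact p = 0.5). Most members were weak: 260 of the 282 had a deposited q-value of 1, as did 7234 of all 7582 peaks. A q-value under 0.05 was given to 16 members and 320 peaks in all. Of the 16, 7 lay in 1 satellite region of chromosome 12, 7 at the distal edges of chromosomes 2, 12, 16 and 19, and 2 in 1 region at the start of chromosome 18.

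The proximal peaks were concentrated on few chromosomes. Chromosome 18 had 38, chromosomes 10 and 16 had 35 each and chromosome 17 had 22, together 130 of 186 (69.9%), while chromosomes 14 and 15 had none. The distal peaks were spread more widely: chromosome 2 had 27 (28.1%), chromosome 14 had 9, chromosome 17 had none and the other 14 had between 2 and 7. Outside the 2 longest lists, 9 proximal and 12 distal ends had a peak.

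**Figure D2:**
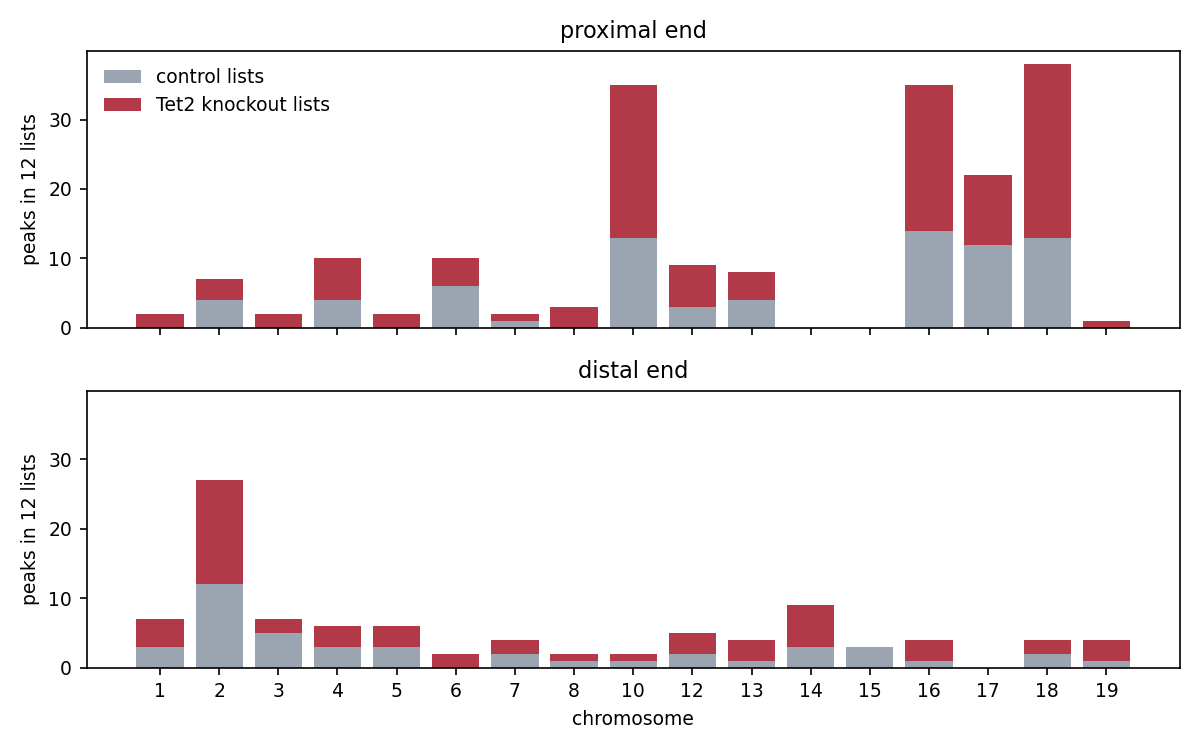
Peaks at the proximal (top) and distal (bottom) end of each of 17 autosomes, summed over 12 lists, with control lists in grey and Tet2 knockout lists stacked in red. Proximal ends of chromosomes 10, 16, 17 and 18 hold 130 of 186 peaks, and the distal end of chromosome 2 holds 27 of 96.

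The distal peaks were concentrated at the very edge of the assembled sequence. Of the 96, 48 ended in the last 1000 assembled bp or past them, a stretch that made up 0.205% of the assembled distal windows. Without the 2 longest lists this share was 35 of 51 (68.6%). Of the 48 peaks, 29 were in knockout and 19 in control lists, and knockout lists also held more of all peaks of the series. The 48 peaks came from 7 lists and 12 chromosomes and had folds of 1.16 to 2.95 (median 1.67). None of their 200 bp summit windows held a CpG, and 46 of the 48 were multi-copy. The regions within 1000 bp of the last assembled base numbered 12, of which 11 had a peak in at least 2 library numbers and 4 reached past the last base into the gap. The limit of 1000 bp was chosen with these values in view.

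The edge of chromosome 2 had a peak in 7 lists, chromosome 14 in 6, chromosomes 3 and 12 in 5 each and chromosomes 5, 13, 18 and 19 in 4 each. Chromosomes 7 and 16 had one in 3 lists, chromosome 4 in 2 and chromosome 1 in 1. The edges of the other 5, chromosomes 6, 8, 10, 15 and 17, had no peak in any list, and neither had those of chromosomes 9 and 11, which are outside the rule.

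**Figure D3:**
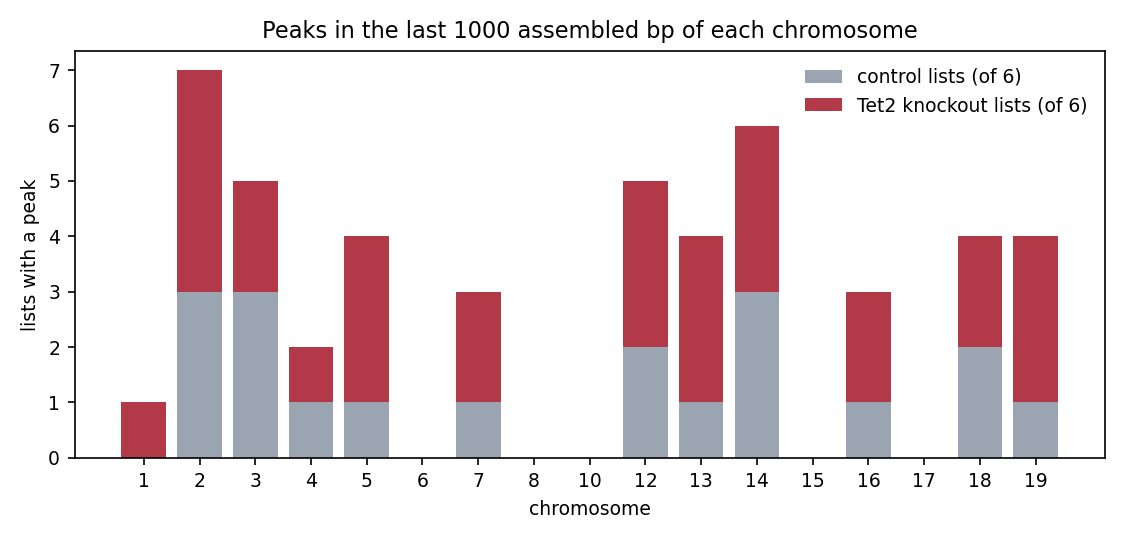
Number of lists with a peak in the last 1000 assembled bp (vertical axis) of each of 17 autosomes (horizontal axis), with control lists in grey and Tet2 knockout lists stacked in red. Chromosome 2 has a peak in 7 lists, and 5 chromosomes have none.

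The edge of chromosome 2 (chr2:182012757-182013129, 8896 bp from Gm14496) had a fold of 1.27 in pool 2 of number 1, of 2.20, 2.11 and 2.46 in pools 1, 2 and 3 of number 5, and of 1.91, 2.81 and 1.66 in number 7. Among the 12 regions within 1000 bp of an edge it alone was met in 3 library numbers. The edge of chromosome 14 (chr14:124801507-124802172) had folds of 1.33, 1.68 and 1.34 in number 5 and 1.21, 1.99 and 1.65 in number 7. The edge of chromosome 12 (chr12:120028664-120029025), 7418 bp from Tmem196, had no peak in pool 1 of number 5, where the other folds were 2.55 and 2.95, against 2.16, 2.94 and 2.37 in number 7. Of the 5 peaks there, 4 had a q-value under 0.05. At chr3:159939409-159939677, 745 bp from Wls, whose protein carries Wnt ligands to the cell surface, folds were 1.70, 2.02 and 1.48 in number 5 and 1.98 and 1.85 in pools 2 and 3 of number 7. At chr19:61331285-61331566 the fold was 1.53 in pool 2 of number 5 and 1.43, 2.81 and 2.07 in number 7. At each of these 5 edges the control values lay within the range of the knockout values or overlapped it.

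The distal region met in most lists lay away from the edge. At chr2:181917418-181918118, 95106 bp before the last assembled base and 18706 bp from the pseudogene Gm5466, folds were 1.30, 1.16 and 1.40 in number 1, 2.64, 1.93 and 2.39 in number 5 (the higher of 2 peaks in pool 2), and 1.69 and 1.49 in pools 1 and 2 of number 7. The 3 control values were above all 5 knockout values here, but they are repeat immunoprecipitations of 1 library, number 5. Control number 3 had no peak in this region. Its 31-mers matched 272 bins of 1 kb (30 or more matches a bin), of which 208 were on chromosome Y, while the median copy number in its summit windows was 1. A second region, chr2:181929079-181929452, had a peak in 4 lists, among them the 1 distal peak of number 3, at a fold of 1.54. The highest distal fold, 3.39, was in pool 3 of number 7 at chr2:181930702-181930997. Its other folds were 1.82 in number 5 and 1.95 in number 7, both in pool 1. Chromosome 4 had a region in 3 lists 947 bp from the last base (chr4:156356729-156357169). It lies 824 bp from the pheromone receptor pseudogene Vmn2r125 and holds no CpG.

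Among proximal regions, chr12:3109777-3110186 stood apart in fold. It had a fold of 1.75 in pool 1 of number 1, of 15.3, 6.22 and 6.53 in number 5, and of 14.7, 6.48 and 6.62 in number 7, with a deposited −log10 q-value of up to 203. Numbers 5 and 7 nearly coincided in each pool (7 over 5: 0.959, 1.04 and 1.01), and pool 1 was high in both. The sequence, shown above, was taken as of the major satellite type. Its best self-match, at a shift of 58 bp, covered only 43.5% of positions. Longer shifts were searched only in part, so the self-match does not settle the type. The region lies 109776 bp inside the first assembled base. Its 31-mers matched 104 bins of 1 kb, 47 of them on an unplaced contig, 39 on chromosome 9 and 2 on chromosome 12. Reads placed here may therefore come from those bins, which was not tested. The nearest gene was the pseudogene Gm9075, at 22736 bp.

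Chromosome 10 owed its count to a single tandem array. Of its 35 proximal peaks, 34 lay in 6 regions within 7533 bp (chr10:3109549-3117081), in 9 lists, 22 in knockout and 12 in control lists. Knockout lists together also held more of all peaks than control lists. Number 5 had 2, 4 and 6 peaks in the array and number 7 had 6 in each pool, with 1, 2 and 1 in number 1. The region met in most lists of all proximal regions is inside it: chr10:3111289-3112111 had folds of 1.77, 1.29 and 1.79 in number 1, 1.18 and 1.34 in pools 2 and 3 of number 5, and 1.55, 2.49 and 1.80 in number 7. Here 5 of the 6 knockout values were above both control values, which are 2 pools of 1 library, number 5. Control number 3 had no peak in this region. The sequence matched itself at a shift of 74 bp over 85.2% of positions, and all 11 bins that its 31-mers matched were on chromosome 10. Its neighbour chr10:3112561-3113998 was met in 7 lists with folds of 1.20 to 2.58. The array was intergenic, with the pseudogenes Gm30674 and Gm3318 nearest.

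All 38 proximal peaks of chromosome 18 lay in 9 regions within 6854 bp (chr18:3004221-3011074), in 9 lists, with 25 in knockout and 13 in control lists. Here too, the larger knockout count goes with the larger number of all peaks in knockout lists. The region chr18:3005671-3006084 had folds of 1.47 in pool 1 of number 1, 2.26, 1.80 and 2.01 in number 5, and 2.05, 2.08 and 2.48 in number 7, with both genotypes overlapping. Next to it, chr18:3004750-3005144 had 1.18 and 1.06 in pools 2 and 3 of number 1, 1.67 and 1.46 in number 5, and 1.39, 1.51 and 1.70 in number 7. Both hold interspersed repeats, with 31-mers in 13596 and 17939 bins of the genome, but the median copy number of 31-mers in the 200 bp summit windows was 1 in all 7 peaks of the first and 2 or 3 in those of the second. The other regions of this stretch that were met in 5 or more lists matched at most 7 bins.

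Of the 12 proximal regions of chromosome 17, 7 lay in Pisd-ps2, a transcribed pseudogene related to the phosphatidylserine decarboxylase gene Pisd. Its 17 peaks came from 7 lists, 9 control and 8 knockout, with folds of 1.10 to 2.38. In its intron, chr17:3081472-3082435 had folds of 1.10 in pool 1 of number 3, 1.50 in pool 3 of number 5 and 2.11, 1.78 and 2.11 in number 7. In an exon, chr17:3080615-3080869 was met in all 3 pools of number 5 and in no other list, at 1.42, 2.04 and 2.11. Copies of this locus lie on chromosomes 5 and 11 and on an unplaced contig, so the placement is uncertain.

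Chromosome 16 had 35 proximal peaks in 21 regions, and 20 of the peaks were in pool 1. The region chr16:3349838-3350444, 1468 bp from the long noncoding RNA gene Gm49504, had folds of 1.56 and 1.61 in pools 2 and 3 of number 1, 1.85, 2.01 and 1.50 in number 5, and 2.69 and 1.78 in pools 1 and 3 of number 7. Its 31-mers matched 15034 bins on all 21 chromosomes, while the median copy number in its summit windows was 2 or 3. On chromosome 13 all 8 proximal peaks lay in chr13:3372911-3373687, met in all 3 pools of numbers 5 and 7 with folds of 1.31 to 2.53. It lies 9049 bp from the pseudogene Gm16505 and matched only 3 bins. In chr16:3349838-3350444 and chr13:3372911-3373687, folds of the 2 genotypes overlapped.

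**Figure D4:**
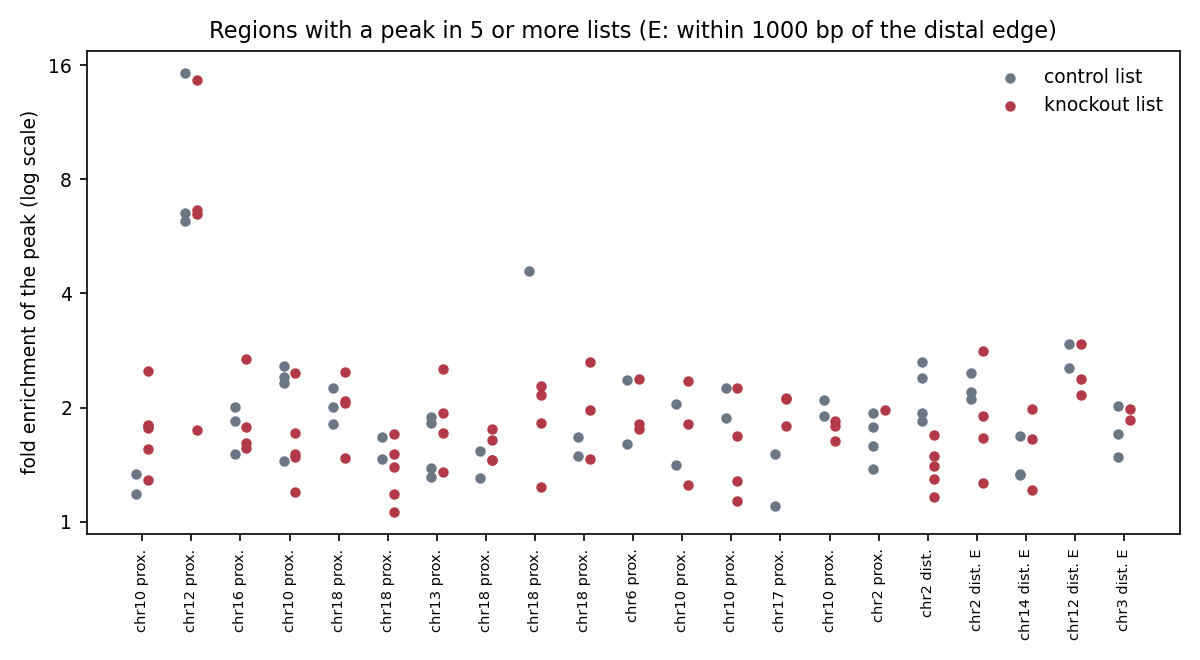
Deposited fold enrichment (vertical log axis) of each peak in the end regions met in 5 or more lists, control lists in grey and knockout lists in red, labelled by chromosome, end (prox., proximal; dist., distal) and E for a region within 1000 bp of the distal edge. The satellite region of chromosome 12 reaches 15.3, and most other points lie between 1 and 3.

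Peaks of different lists were merged to 123 end regions, 79 proximal and 44 distal. Of these, 42 (34.1%) had a peak in at least 2 library numbers, against 4.27% of all 6230 regions of the series. That contrast shrank without pool 1, to 34 of 52 (65.4%) against 223 of 440 (50.7%), an alternative added after the data were seen. The proximal count was 26 of 79 (32.9%) and the distal count 16 of 44 (36.4%). None was met in all 4 numbers and 14 were met in 3. Of the 80 regions met in 1 list, 72 came from the 2 longest lists. All end regions of numbers 1 and 3 (8, 6 and 5 in the pools of number 1 and 4 in pool 1 of number 3) were met in another number. The same share over all regions of these lists was not computed, so it is unknown whether this is particular to the ends.

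Recurrent regions lay nearer the edge by median, but at proximal ends most of the near ones were pieces of 2 stretches. Those in at least 2 numbers were a median of 0.104 kb from the last assembled base at distal ends (11 of 16 within 1 kb) and 15.2 kb from the first assembled base at proximal ends (14 of 26 within 20 kb). Regions of 1 list had medians of 229.7 kb and 227.7 kb, near the middle of the windows. Of all 18 proximal regions within 20 kb, 6 belonged to the array of chromosome 10 and 9 to the start of chromosome 18. Recurrent proximal regions of other chromosomes lay up to 372910 bp from the first base, on chromosome 13. Nearest to the inner border, a proximal peak on chromosome 12 lay 5108 bp inside it with a fold of 1.70 and one on chromosome 2 lay 37494 bp outside it with 1.28; distal peaks lay 6406 bp inside on chromosome 1 with 1.89 and 12266 bp outside on chromosome 15 with 1.42.

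**Figure D5:**
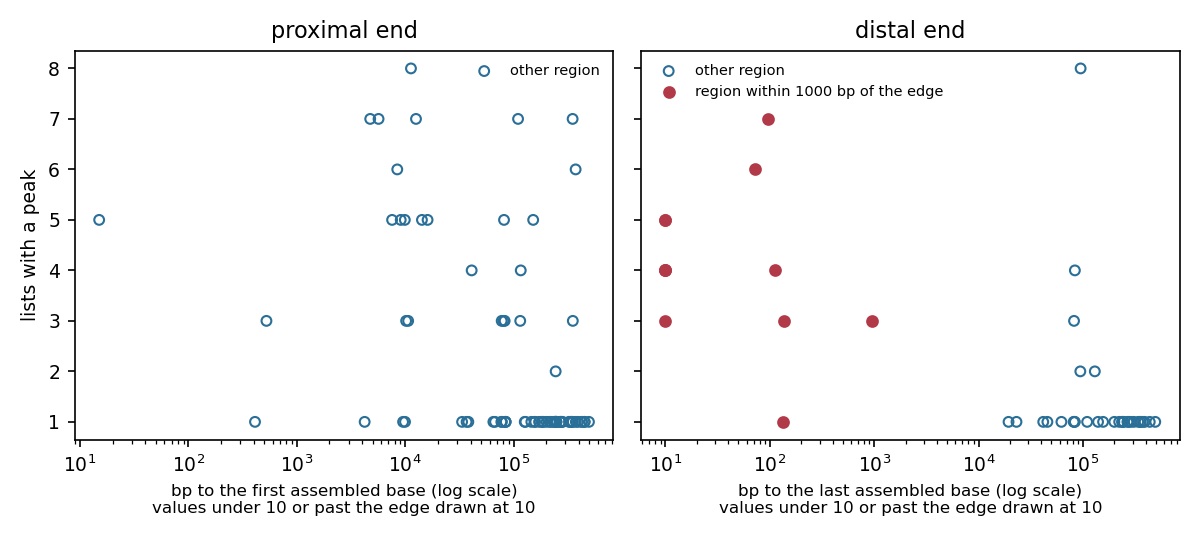
Distance of each end region from the first (left) or last (right) assembled base (horizontal log axis, bp) and the number of lists with a peak in it (vertical axis), with distal regions within 1000 bp of the edge filled in red; some points overlap. At distal ends 11 of the 16 regions in at least 2 library numbers lie within 1 kb of the edge.

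The share of end peaks in numbers 5 and 7 differed by pool. In pool 1, end peaks were 2.10% of the list of number 5 and 1.96% of that of number 7, against 13.6% and 13.0%, respectively, for pool 2, and 12.6% and 13.3% for pool 3. The 2 numbers shared 16 end regions in pool 1 (33.3% of those of number 5 and 20.8% of those of number 7). Pool 2 had 22 in common (68.8% and 64.7%), and pool 3 had 21 (70.0% and 65.6%). Within a number, pools 2 and 3 shared 21 regions in number 5 (65.6% and 70.0%) and 23 in number 7 (67.6% and 71.9%). Sharing between these lists was not computed over all regions, so these values cannot be called particular to the ends. Of the 100 end peaks exactly 200 bp wide, the shortest width present, 74 were in the 2 longest lists.

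No difference between genotypes at the ends was shown. End peaks numbered 17.3 per list in knockout (geometric mean of count + 1, less 1; SD 0.569 log10 units, n = 2 library numbers) and 7.05 in control (SD 0.951, n = 2), a ratio of 2.27. The two-sided exact permutation of 4 numbers, which cannot go below 0.333, gave p = 0.667. Without number 3 the ratio was 0.482 and without number 7 it was 0.898, so the direction rests on both. The proximal ratio was 2.14 and the distal ratio 1.45 (exact permutation p = 0.667 each), and they turned as well, to 0.546 and 0.433 without number 3 and to 0.938 and 0.541 without number 7. The length covered, as a geometric mean of bp + 1, less 1, was 5365 bp in knockout and 329 bp in control (exact permutation p = 0.667). Control lists covered 12925, 9944 and 10114 bp in number 5 and 998, 0 and 0 bp in number 3. Knockout lists covered 1759 to 19283 bp. Without number 3 the knockout length was 0.492 of control, so the 2 lists of number 3 without end peaks set the ratio. End peaks were 9.26% ± 0.207 of a list in knockout and 6.13% ± 4.66 in control (SD, n = 2; exact permutation p = 1), a difference of 3.12 points that became -0.171 without number 3. The median fold was 1.58 ± 0.213 and 1.57 ± 0.305 (SD, n = 2; exact permutation p = 1).

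One end region had a peak in both knockout numbers and no control number, chr18:3010632-3011074, with folds of 1.84 in number 1 and 1.28 and 1.45 in number 7; such regions were 0.177% of all 6230. One had a peak in both control numbers and no knockout number, chr6:3050525-3050820, 469 bp from Gm23551, with folds of 1.34 in number 3 and 1.82 and 1.87 in number 5; such regions were 0.0321% of all. Where numbers 5 and 7 shared a region in a pool, the median ratio of folds, 7 over 5, was 1.04 in pool 1 (higher in 9 of 16), 1.04 in pool 2 (12 of 22) and 1.18 in pool 3 (15 of 21). In the regions within 1000 bp of a distal edge it was 1.05 (2 of 4), 1.17 (5 of 8) and 1.21 (3 of 5). These are 1 library of each genotype, so no test was made.

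Most end peaks lay outside genes. Annotated genes overlapped 14.0% of proximal and 14.6% of distal peaks, against 43.8% and 45.1% of windows placed each 1000 bp through the same ends. A region met in several lists counts several times in these shares of peaks. Counted once each, 63 of 79 proximal regions (79.7%) and 30 of 44 distal regions (68.2%) were intergenic, so the distal contrast was weaker. Gene overlap of the other peaks on these chromosomes was not computed. Of the regions met in at least 3 lists, 22 of 26 proximal and 14 of 14 distal ones were intergenic. Summit windows were multi-copy (median copy number of their 31-mers above 1) for 54.8% of proximal peaks, against 43.4% of the placed windows, and for 60.4% of distal peaks, against 29.5%; for other peaks on these chromosomes the share was 24.9%. Without the 2 longest lists the shares were 61.0%, 74.5% and 77.9%, highest for the other peaks, so multi-copy sequence was then not particular to the ends. The share in proximal minus distal peaks was -7.34 points (SD 52.3, n = 4 numbers; exact sign permutation p = 0.625), with a spread far above it. Proximal summit windows lacked a CpG in 20.4% of cases and distal ones in 69.8%, against 31.7% and 39.7% of the placed windows. The distal shares came mostly from the 48 peaks in the last 1000 assembled bp. These gave 46 of the 58 multi-copy distal windows and 48 of the 67 without a CpG. The part of multi-copy sequence in these results was not tested.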

How the data were processed

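The 12 lists are in narrowPeak format. Per the submitters' processing notes the tools were Bowtie2, SAMtools and MACS2 and the build mm10 (GRCm38); their parameters, and whether inputs served as control, are not given in the sources used here. Every peak name in the lists includes Nanog, a protein that appears in no label; the lists are taken as 5hmC lists from the sample labels alone. The authors deposited, per peak, a fold enrichment (a linear ratio), a −log10 p-value and a −log10 q-value, each computed within 1 list. Deposited peak starts, ends and summit offsets are positions in bp; coordinates here are 1-based.

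Peaks were assigned by position alone, without a filter, and merged over lists where they overlapped or touched. The members and lists were chosen with earlier results of these data known. Summit windows of 200 bp were scored for CpG and copies of 31-mers on both strands in the reference without patches, and set beside windows each 1000 bp. Genes came from GENCODE M21. One sequence feature of the distal edges is not reported here. Counts were compared as log10(count + 1), averaged over the 3 pools of a number; the 4 numbers were permuted, 2 against 2 (smallest p 0.333), or their signs were (smallest p 0.125). Pools pair the lists, since titles and protocol give each pool 1 shared immunoprecipitation; permutation within pools was an alternative. Named regions are the 6 proximal and 6 distal ones in most lists, those of 1 genotype in both its numbers and of highest fold; others, among them the regions of chromosomes 4, 13 and 17, chr2:181929079-181929452 and the counts by cluster, were chosen after their values were seen. Python 3.11.15, numpy 2.4.6, pandas 2.3.3, scipy 1.17.1, numba 0.67.0 and matplotlib 3.10.9 were used, and the routines were tested on simulated data.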

Additional observations from a re-analysis of the deposited data

How the results depend on the processing

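Over 131 alternative values of the results, 25 changed direction, in 10 of the 11 tested comparisons; the exception was proximal against distal peaks per list, which stayed above 1 but fell from 1.79 to 1.10 (exact p = 0.625) with windows of 1000 kb. Outside the 2 longest lists, the next 500 kb that these windows take in held 4 proximal and 31 distal peaks, and all 31 lay on chromosome 13. The part of chromosome 13 in the fall was not tested. No alternative left out a chromosome. Leaving out a library number in turn gave 0.482 to 10.7 for the knockout over control ratio of end peaks, 0.546 to 8.42 for proximal peaks, 0.433 to 4.88 for distal peaks and 0.492 to 536.7 for the length covered. It gave -0.171 to 6.42 points for the share of a list, -3.97 to 8.60 points for the proximal share, -0.207 to 0.224 for the median fold of end peaks by genotype and 1.59 to 2.01 for proximal against distal peaks. For fold it gave -0.112 to 0.0200 for proximal minus distal and -0.0556 to -0.00663 for end minus other peaks, and -30.0 to 12.4 points for the multi-copy share. With pool 1 left out the fold difference by genotype was -0.193 and the multi-copy difference 8.30 points; with pool 2 out, end minus other fold was 0.00651; with pool 3 out, the fold by genotype was -0.0384 and proximal minus distal 0.00187. Windows of 250 kb gave a proximal share of -0.430 points and a fold by genotype of -0.0210. With 21-mers the multi-copy difference was 7.15 points. With the replicate block (12 lists permuted within pools) the fold by genotype was -0.118 (exact permutation p = 0.519), the multi-copy difference 4.52 points (exact p = 0.732) and the proximal to distal ratio 1.79 (exact p = 0.00195), a call gained only by counting repeat immunoprecipitations of 4 libraries as 12 samples, since the test over libraries gave 0.125. It changed no other call. Regions met in at least 2 numbers were 42, and 29 when joined over gaps of up to 1000 bp, 42 at an overlap of at least 0.5 of the shorter peak, 37 at a −log10 p of at least 1 and 34 without pool 1. Depth is unknown, so absence of a peak is not absence of 5hmC.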
